A study of Mus musculus with 16 samples.

Results

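Serotonin receptors and the vesicular monoamine transporter were followed through the dentate gyrus of aged mice in 6 genes, Htr1a, Htr2a, Htr2c, Htr4, Htr7 and Slc18a2. They were taken by gene name from the abundance tables of the series, and all 6 were present among 24421 gene names in each of 16 libraries. The mice were males of the C57BL/6 strain, 1 year old, either p16Ink4a +/+ (p16 WT) or p16Ink4a knockout (p16 KO), and were kept sedentary (CTL) or given access to a running wheel for 12 days (RUN). The 4 groups were the sedentary p16 WT CTL and p16 KO CTL mice and their running counterparts p16 WT RUN and p16 KO RUN. Each had 4 libraries, numbered 1 to 16 in that order of p16 WT CTL (1 to 4), p16 KO CTL (5 to 8), p16 WT RUN (9 to 12) and p16 KO RUN (13 to 16), and each library pooled the dentate gyri of 2 mice. The knockout is a germline null allele that was made in another mouse strain and crossed into C57BL/6, and it is reported to leave p19Arf functional. p16Ink4a was therefore absent from all cells of the knockout mice, and not from neurons alone.

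Serotonin reaches the hippocampus through fibres of the raphe nuclei and acts there through a large receptor family. Htr1a encodes a receptor coupled to Gi/o proteins, which lowers cyclic AMP and opens G protein-gated potassium channels. Htr2a and Htr2c encode receptors coupled to Gq/11, which act through phospholipase C, inositol trisphosphate and calcium, whereas Htr4 and Htr7 encode receptors coupled to Gs, which raise cyclic AMP. Slc18a2 encodes the vesicular monoamine transporter VMAT2, which loads serotonin, dopamine, noradrenaline and histamine into synaptic vesicles. The receptors Htr1a and Htr4 are known from dentate granule neurons, while Htr2c is also known as an abundant transcript of the choroid plexus, the epithelium that borders the hippocampus.

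The values are TPM, the share of a gene among all transcripts of its library, corrected for gene length so that levels can be compared between genes. The libraries held 5.42 to 16.8 gigabases of aligned sequence, and the 6 genes were covered by 5.99 to 107 reads per base. Sequence per library was 7.62 to 16.8 gigabases in p16 WT CTL and 7.78 to 14.6 in p16 KO CTL. It was 5.42 to 7.49 in p16 WT RUN and 6.9 to 7.63 in p16 KO RUN, so running libraries were shallower in each genotype. Depth and running cannot be told apart here, and the part of depth in the differences was not tested. All 6 genes passed the filter on low values (a mean of at least 0.1 TPM), which left 17317 genes to be tested. The Cdkn2a locus, which holds p16Ink4a together with p19Arf, was listed above 0 in 5 of 8 wild-type and 3 of 8 knockout libraries and nowhere above 0.586 TPM, so that it did not check the genotype labels. In 3 sedentary libraries, p16 WT CTL replicate 2 and p16 KO CTL replicates 6 and 7, the summed level of 8 nuclear long noncoding RNAs was 983.9, 549.3 and 485.9 TPM, against 1838 to 2541 TPM in the other 13. Of these 3, p16 WT CTL replicate 2 and p16 KO CTL replicate 7 were also the deepest libraries, at 16.8 and 14.6 gigabases. For the 6 genes, calls that were lost or gained and differences that turned without these 3 libraries are given below beside the gene.

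The 6 genes were expressed at a moderate level, between the 54.8th percentile (Slc18a2) and the 66.5th percentile (Htr1a) of all gene names. Over the 16 libraries Htr1a had the highest mean (18.7 ± 3.83 TPM, SD, n = 16), followed by Htr4 (15.4 ± 2.69 TPM), Htr2c (8.40 ± 3.76 TPM), Htr7 (8.17 ± 1.74 TPM), Htr2a (8.00 ± 1.76 TPM) and Slc18a2 (6.77 ± 1.29 TPM). Htr4 was above Htr2c in 15 of 16 libraries, whereas Htr1a was above Htr4 in 12 of 16 and in only 1 of the 4 p16 WT RUN libraries. Htr2c, Htr7 and Htr2a could not be ordered, since Htr2c was above Htr7 in 8 of 16 libraries and Htr7 above Htr2a in 8 of 16. Htr2c was the most variable of the 6, with a coefficient of variation of 44.8% over all libraries and a 6.74-fold range, while the other 5 genes had coefficients of 17.5% to 22.0%.

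**Figure D1:**
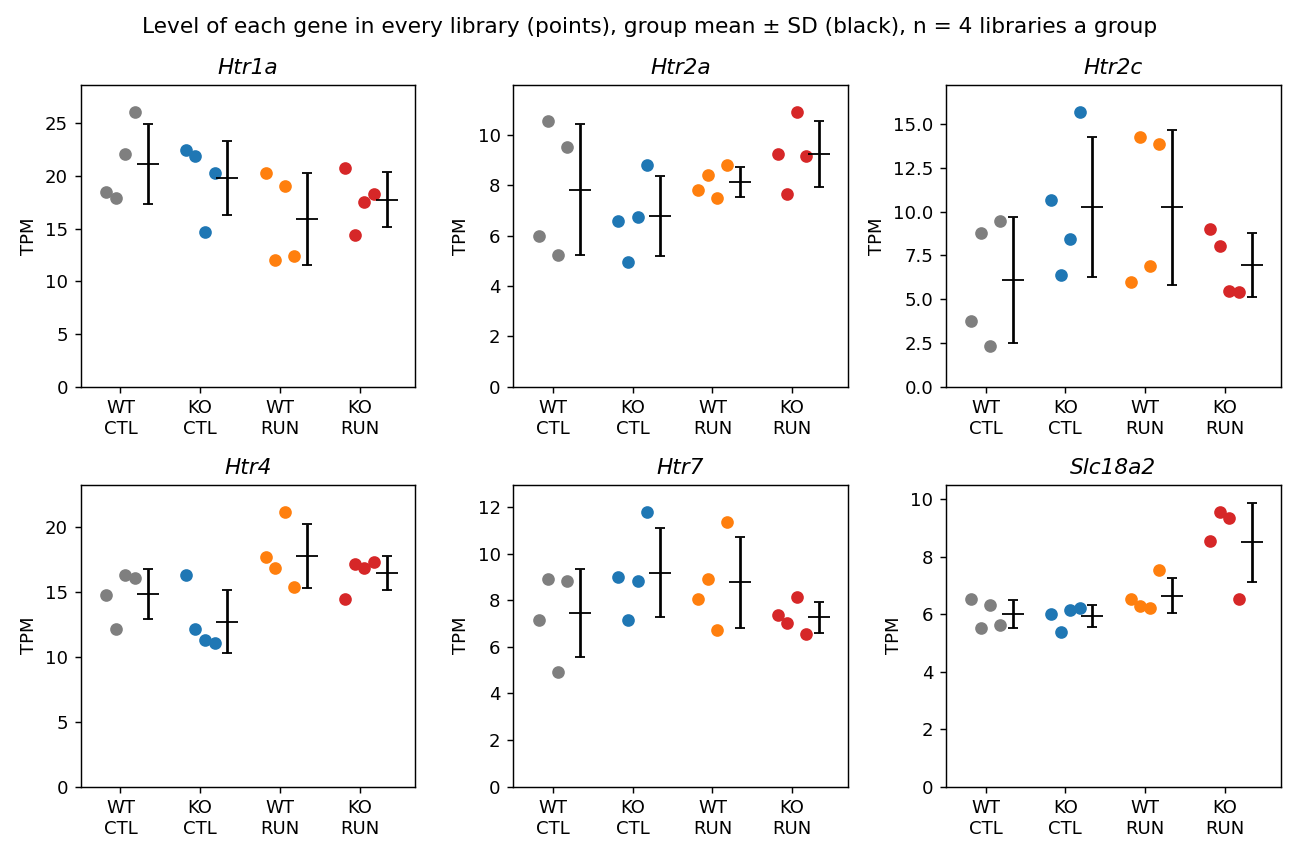
Level of the 6 genes in TPM in every library (points, vertical axes from 0), by genotype (WT, KO) and condition (sedentary CTL, running RUN), with the mean and SD of each group in black (n = 4). The 4 p16 KO RUN libraries of Slc18a2 lay between 6.52 and 9.55 TPM, and 3 of them lay above every library of the other groups, whereas the Htr2c libraries of all groups were widely spread.

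Differences were tested with limma on log2 TPM across all genes, in each pair of groups and, with all 16 libraries, for the running effect averaged over both genotypes, the genotype effect averaged over both conditions and the interaction. The study's own threshold, an unadjusted p under 0.05, was used beside Benjamini-Hochberg adjusted values. Running in the knockout (p16 KO RUN vs p16 KO CTL) moved 4 of 6 genes past the unadjusted threshold, Slc18a2, Htr4 and Htr2a upward and Htr7 downward, where 18.5% of all genes passed. This count fell to 2 without p16 KO CTL replicate 7 or 8 or p16 KO RUN replicate 14 or 15 and to 1 without p16 KO RUN replicate 16, and it was 2 without the 3 libraries low in nuclear RNA, where 1470 in place of 3196 of all genes passed. Those 2 were Htr7 and Htr2c, both downward, and none of the upward calls was kept there. Without p16 KO CTL replicate 7 the genes that passed included Htr1a, downward. Over all genes the count was 2023 without p16 KO CTL replicate 7 and 2063 without replicate 6. Running in the wild type (p16 WT RUN vs p16 WT CTL) moved 1 of 6 (Htr1a, downward), against 4.81% of all genes. Averaged over both genotypes, running moved 3 of 6, Htr4 and Slc18a2 upward and Htr1a downward, against 17.9% of all genes.

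Loss of p16 in sedentary mice (p16 KO CTL vs p16 WT CTL) moved 0 of 6 genes past the unadjusted threshold, against 6.69% of all genes. In running mice (p16 KO RUN vs p16 WT RUN) it moved 1 of 6 (Slc18a2, upward), against 3.87% of all genes, and averaged over both conditions it moved 1 of 6 (again Slc18a2, upward), against 7.12%. The combined difference (p16 KO RUN vs p16 WT CTL) also moved 1 of 6, Slc18a2, against 8.63%. The interaction, the running effect in the knockout minus that in the wild type, passed in 2 of 6 genes, Htr2c and Htr7, against 5.48% of all genes. The backgrounds moved when 1 library was left out. For loss of p16 in sedentary mice 1158 of all genes passed, and with p16 KO CTL replicate 7 left out the count was 557, and with p16 WT CTL replicate 2 left out it was 3029. Of these 8 fits, the one that left out p16 KO CTL replicate 8 was alone in staying within 1.5 times. The interaction, past the threshold in 949 genes, had 2381 and 1975 when p16 WT CTL replicate 2 or p16 KO CTL replicate 5 was left out, and 619 when p16 WT CTL replicate 3 was. For the averaged genotype effect 1233 genes became 2724 and 2367 under the first 2 of these exclusions, and 720 when p16 KO CTL replicate 7 was left out. Running in the wild type went from 833 to 531 without p16 WT RUN replicate 10, and loss of p16 in running mice from 671 to 1048 without p16 WT RUN replicate 12. The counts of the combined difference and of running averaged over genotypes stayed within 1.5 times in each such fit.

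No adjusted p of the 6 genes was under 0.05 in any of the 8 limma comparisons, and the smallest was 0.110, for Htr4 in the running effect averaged over genotypes. The share of all genes with an adjusted p under 0.05 was 0.0173% for running in the knockout, 0.751% for running averaged over genotypes, 0.00577% for loss of p16 in running mice and 0% in the other 5. After the TPM values had been scaled between libraries by median ratios, as in the fits, the libraries of none of the 6 genes were fully separated in any pair of groups, where 10.4% of all genes were separated for running in the knockout, 3.34% for running in the wild type, 2.7% for loss of p16 in sedentary mice, 2.46% for its loss in running mice and 5.68% for the combined difference. With TPM as deposited Slc18a2 was fully separated in 2 pairs of groups, for running in the knockout, where 10% of all genes were separated, and for the combined difference, where 5.56% were, while the other 5 genes were separated in none. For the other pairs the share of all genes separated was then 3.34%, 2.81% and 2.49%, for running in the wild type and loss of p16 in sedentary and in running mice. The median log2 difference of the 6 genes was 0.05 for running in the knockout and 0.18 for running in the wild type, beside 0.018 and 0.0039 over all genes tested. "Higher" and "lower" below refer to an unadjusted p under 0.05, and for the 6 genes each such difference missed the adjusted threshold in these fits. Leaving out p16 KO CTL replicate 5 took Htr4 past it for running averaged over genotypes (adjusted p = 0.0382).

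**Figure D2:**
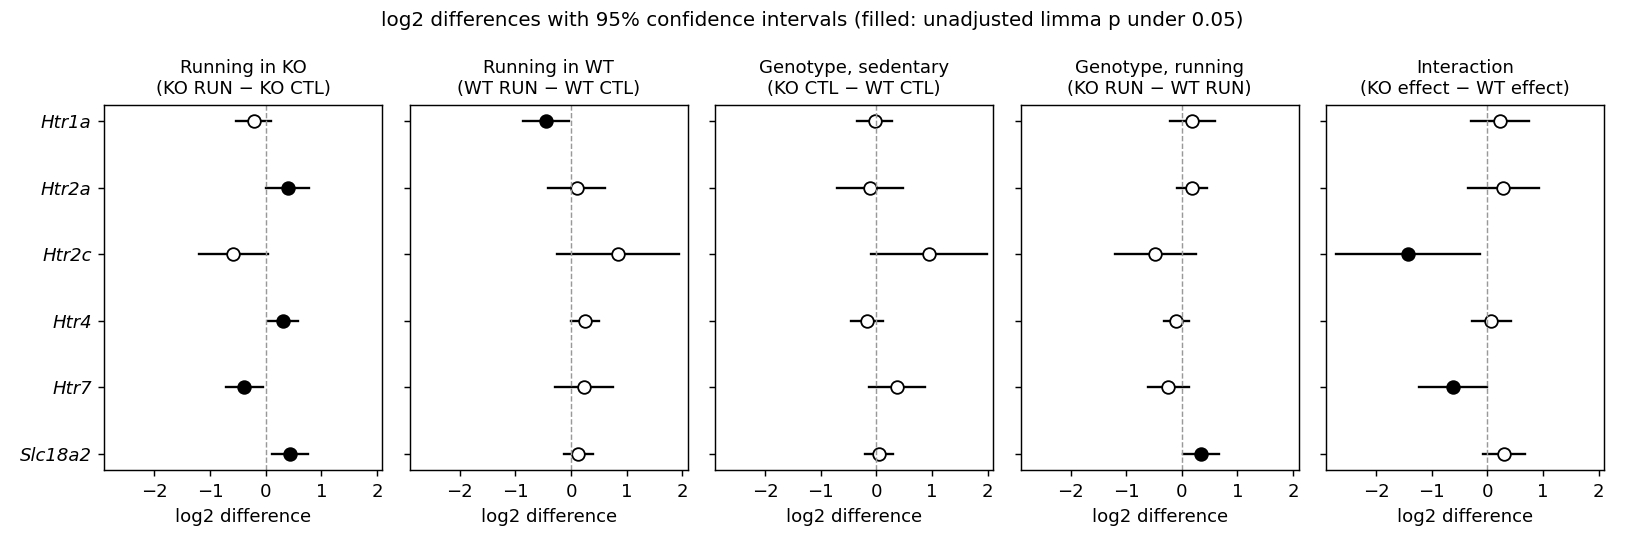
log2 differences of the 6 genes (points) with 95% confidence intervals (lines) in 5 comparisons, on the same horizontal axis in log2 units. Filled points had an unadjusted limma p under 0.05. The intervals of Htr2c were the widest, and the interaction of Htr2c (-1.42) lay farthest from 0.

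Htr1a, the Gi/o-coupled receptor that also serves as the autoreceptor of raphe neurons, was read from a single exon at chr13:105443693-105448133 (mm10, plus strand). Its level was 18.5, 17.9, 22.1 and 26.0 TPM in p16 WT CTL, 22.4, 21.9, 14.7 and 20.3 TPM in p16 KO CTL, 20.3, 12.0, 19.1 and 12.4 TPM in p16 WT RUN, and 20.8, 14.4, 17.6 and 18.3 TPM in p16 KO RUN. The 2 lowest libraries of the 16 were both p16 WT RUN, but the other 2 of that group lay among the sedentary ones. Running lowered Htr1a in the wild type by 0.44 on the log2 scale (SE 0.18, unadjusted p = 0.0386, adjusted p = 0.985), and an exact permutation test (two-sided, over all assignments of the 8 libraries) gave p = 0.143. This call was lost without p16 WT CTL replicate 3 or 4 or p16 WT RUN replicate 10 or 12, with differences from -0.33 to -0.57 and p up to 0.110 over the 8 fits. In the knockout the running difference was -0.22 (SE 0.14, p = 0.150, exact permutation p = 0.229) and did not pass, but without p16 KO CTL replicate 7 it did, at -0.33 (adjusted p = 0.372).

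Averaged over both genotypes, Htr1a was 0.796-fold of the sedentary level in running mice (log2 difference -0.33, SE 0.12, unadjusted p = 0.0160, adjusted p = 0.187, and p = 0.0286 in an exact permutation test that exchanged libraries within each genotype). The unadjusted call held in all 16 fits that left out 1 library, with differences from -0.27 to -0.39, and also without the 3 libraries low in nuclear RNA, where the difference was -0.39 (adjusted p = 0.378). The combined difference of Htr1a was -0.25 (p = 0.0831, exact permutation p = 0.143), and leaving out p16 KO RUN replicate 13 made it pass, at -0.33 (adjusted p = 0.598). Running effects on Htr1a were not shown to differ between genotypes (interaction 0.22, 95% interval -0.29 to 0.74). With the summed level of 10 monoaminergic neuron genes Htr1a had r = -0.589 (-0.356 without the 2 libraries farthest from the median). With that of 10 genes of newborn neurons and dividing cells r was 0.565 (0.356). For running averaged over genotypes 2 of 7 monoaminergic genes tested were higher and 0 lower, and 1 and 0 of the other 10, against 17.9% of all genes. The part of these lists in the Htr1a difference was not tested.

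The genes of the Gi/o pathway that act after Htr1a were read from a list of 12, all of which were tested. For running in the knockout, 3 were higher and 2 lower, where 18.5% of all genes passed. Kcnj6, Kcnj5 and Rgs4 were the higher ones, a pair of G protein-gated potassium channel subunits and a GTPase-activating protein that ends Gi/o and Gq signals, with log2 differences of 0.51, 0.91 and 0.44. The lower ones, Gnai1 and Gnai2, encode Gi alpha subunits and fell by 0.31 and 0.25 on the log2 scale. Averaged over genotypes, Kcnj6 was 0.41 higher in running mice (SE 0.08, adjusted p = 0.0219), the only adjusted call of the main fits in any of the pathway lists described here. When 1 library was left out or a setting changed, some fits of this average also gave an adjusted call for Rgs4, Pde4a, Drd1 or Drd4. For running in the knockout some gave one for Kcnj6, Pde4a or Rapgef4. The mean level of Kcnj6 was 82.0 ± 13.9 TPM in p16 WT CTL, 69.0 ± 10.9 TPM in p16 KO CTL, 101 ± 6.71 TPM in p16 WT RUN and 102 ± 9.43 TPM in p16 KO RUN (SD, n = 4). The adjusted call of Kcnj6 held in 10 of 16 fits that left out 1 library and was lost without p16 WT CTL replicate 1, p16 KO CTL replicate 6 or 7, p16 WT RUN replicate 10, or p16 KO RUN replicate 14 or 16, with an adjusted p up to 0.065, and without the 3 libraries low in nuclear RNA its difference was 0.33 with an adjusted p of 0.165. In the wild type alone Kcnj6 was the one gene of the list to pass, with a difference of 0.31 (adjusted p = 0.985), which missed the threshold without p16 WT RUN replicate 10 (0.25, adjusted p = 1). Rgs4 passed there in 3 of 8 fits that left out 1 library and in 4 of 11 other settings. Without the libraries low in nuclear RNA it passed at 0.38 (adjusted p = 0.783). Kcnj5 missed the threshold in the knockout without p16 KO CTL replicate 6 or p16 KO RUN replicate 16, with p up to 0.0586.

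Htr2a, the Gq-coupled receptor through which serotonergic hallucinogens act, lies at chr14:74640840-74706859 (mm10, plus strand). Its level was 6.00, 10.6, 5.24 and 9.51 TPM in p16 WT CTL, 6.58, 4.97, 6.76 and 8.82 TPM in p16 KO CTL, 7.80, 8.43, 7.52 and 8.82 TPM in p16 WT RUN, and 9.24, 7.66, 10.9 and 9.16 TPM in p16 KO RUN. The sedentary wild-type libraries fell into a high and a low pair, and the running groups were tighter. In the knockout Htr2a was 1.31-fold higher after running (log2 difference 0.39, SE 0.17, p = 0.0486, adjusted p = 0.270, exact permutation p = 0.0857). The call held in 2 of 8 fits that left out 1 library. It was lost without p16 KO CTL replicate 5, 6 or 7 or p16 KO RUN replicate 13, 15 or 16, where p reached 0.133 and the difference ranged from 0.27 to 0.52 over the 8 fits. The call was also lost with no filter, a pseudocount of 1, quantile normalization or no variance trend. With all 16 libraries in one fit the limma p was 0.0853. Without the libraries low in nuclear RNA the difference was 0.24 (adjusted p = 0.738) and did not pass. The difference of Htr2a in sedentary mice, -0.11 in the knockout against the wild type, turned to 0.22 without them, and the interaction turned from 0.29 to -0.04, none of which passed. In the wild type the difference was 0.10 (95% interval -0.42 to 0.62, p = 0.669, exact permutation p = 0.743), and without p16 WT CTL replicate 3 it was -0.08. Averaged over genotypes Htr2a differed by 0.25 (p = 0.122, exact permutation p = 0.155), and only without p16 WT CTL replicate 2 did it pass, at 0.34 (adjusted p = 0.301). With the sum of 11 CA3 and CA2 pyramidal neuron genes Htr2a had r = 0.517 (0.319 without the 2 libraries farthest from the median). With that of 14 GABAergic interneuron genes r was 0.506 (0.610). Amigo2, of the CA3 and CA2 list, was the gene most like Htr2a over the 16 libraries (r = 0.883). The part of these lists in the Htr2a differences was not tested.

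Htr2c, the second Gq-coupled receptor of the set, spans chrX:146962513-147197277 (mm10, plus strand) and hosts microRNA and small nucleolar RNA genes in its introns. The 250 bases before its start site (RefSeq promoter, GRCm38.p6, plus strand, chrX:146962263-146962512) are shown because Htr2c varied most among the 6 genes. Capitals mark the only match among 4 motifs searched on both strands.
Htr2c: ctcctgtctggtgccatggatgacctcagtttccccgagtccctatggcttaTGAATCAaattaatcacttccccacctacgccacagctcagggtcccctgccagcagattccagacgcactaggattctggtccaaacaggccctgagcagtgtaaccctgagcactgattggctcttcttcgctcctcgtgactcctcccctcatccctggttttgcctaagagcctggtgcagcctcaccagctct
The match, TGAATCA, starts at base -198 and has the letters TGANTCA of an AP-1-like site, which 7.81% of 32851 RefSeq promoter windows hold. It is a description of the sequence and not evidence of a bound factor.

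Htr2c measured 3.77, 8.81, 2.32 and 9.47 TPM in p16 WT CTL, 10.7, 6.38, 8.42 and 15.7 TPM in p16 KO CTL, 5.99, 14.3, 6.90 and 13.9 TPM in p16 WT RUN, and 9.01, 8.01, 5.44 and 5.39 TPM in p16 KO RUN. The p16 WT CTL and p16 WT RUN groups each held a high and a low pair of libraries, and all groups overlapped. The running difference was -0.58 in the knockout (SE 0.27, p = 0.0621, exact permutation p = 0.143) and 0.84 in the wild type (SE 0.49, p = 0.117, exact permutation p = 0.229), and neither passed. Without p16 KO CTL replicate 6 or p16 KO RUN replicate 13 the difference in the knockout passed, at -0.77 (adjusted p = 0.367) and -0.71 (adjusted p = 0.361). With quantile normalization it passed too, at -0.65 (adjusted p = 0.248). The test of their difference, the interaction, was -1.42 (SE 0.61, 95% interval -2.71 to -0.13, unadjusted p = 0.0328, adjusted p = 0.797). It kept its sign in all 16 fits that left out 1 library, from -1.03 to -1.69, and its call in 9 of them. The call was lost without p16 WT CTL replicate 1 or 3, p16 KO CTL replicate 8, p16 WT RUN replicate 10 or 12, or p16 KO RUN replicate 15 or 16, with p up to 0.0739.

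In sedentary mice Htr2c was 1.93-fold of the wild-type level in the knockout, with an interval that included 0 (log2 difference 0.95, 95% interval -0.09 to 1.99, p = 0.0699, exact permutation p = 0.200). Without p16 WT CTL replicate 2 or 4 this comparison passed, at 1.22 in each case (adjusted p = 0.270 and adjusted p = 0.850). It also passed without the libraries low in nuclear RNA, at 1.58 (adjusted p = 0.663), as did running in the knockout, at -0.94 (adjusted p = 0.494). The interaction of Htr2c was then -2.05 (adjusted p = 0.639) and still passed. In running mice Htr2c was at -0.47 in the knockout against the wild type (p = 0.175, exact permutation p = 0.286), and without p16 WT RUN replicate 9 it passed, at -0.70 (adjusted p = 1). Averaged over genotypes the running difference of Htr2c was 0.13 (95% interval -0.51 to 0.78), and without p16 WT CTL replicate 3 it was -0.06.

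Htr7, a Gs-coupled receptor known from thalamus, hippocampus and the circadian clock of the hypothalamus, lies at chr19:35958729-36057360 (mm10, minus strand). Its level was 7.17, 8.92, 4.90 and 8.80 TPM in p16 WT CTL, 8.99, 7.15, 8.82 and 11.8 TPM in p16 KO CTL, 8.06, 8.93, 6.74 and 11.4 TPM in p16 WT RUN, and 7.36, 7.00, 8.14 and 6.56 TPM in p16 KO RUN. The p16 KO RUN libraries were the tightest of the 4 groups and lay toward the low end of p16 KO CTL, with overlap. Running in the knockout lowered Htr7 by 0.38 on the log2 scale (SE 0.15, p = 0.0303, adjusted p = 0.241, exact permutation p = 0.0571). This call was lost without p16 KO CTL replicate 7 or 8 or p16 KO RUN replicate 13, 14 or 16, where p reached 0.0784, and the differences of the 8 fits ran from -0.26 to -0.48. It was lost as well with TPM as deposited (-0.32, adjusted p = 0.301) and with all 16 libraries in one fit (-0.38, adjusted p = 0.294). In the wild type the running difference was 0.23 (95% interval -0.29 to 0.76).

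The interaction of Htr7 was -0.61 (SE 0.29, 95% interval -1.23 to -0.00029, adjusted p = 0.797), with an interval that just left out 0. Its call held in 5 of 16 fits that left out 1 library, and the differences ran from -0.42 (without p16 WT CTL replicate 3) to -0.74 (without p16 WT RUN replicate 11). The call was lost without p16 WT CTL replicate 1 or 3, p16 KO CTL replicate 5, 7 or 8, p16 WT RUN replicate 9, 10 or 12, or p16 KO RUN replicate 13, 14 or 16, with p up to 0.113. With the libraries low in nuclear RNA left out the interaction was -0.88 (adjusted p = 0.648) and running in the knockout gave -0.52 (adjusted p = 0.501), and both passed. In running mice Htr7 was at -0.24 in the knockout against the wild type (p = 0.171, exact permutation p = 0.229), and when p16 WT RUN replicate 11 was left out it passed, at -0.36 (adjusted p = 0.998). The combined difference of Htr7, -0.0057, was 0.12 without the libraries low in nuclear RNA, and neither passed.

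Over all 16 libraries Htr2c and Htr7 followed each other more closely than any other pair of the 6 genes. On the log2 scale Pearson's r was 0.864 and Spearman's rho 0.838 over the 16 libraries, 0.800 without the 2 libraries farthest from the median of Htr2c, and 0.845 after the group means were removed. Htr2a was related to both within groups (r = 0.773 with Htr2c and 0.856 with Htr7), whereas over all libraries these values were 0.505 and 0.499. Of 14438 genes ranked, those most like Htr2c were Necab2 (r = 0.923), Btbd11 (0.918) and Vit (0.908), and those most like Htr7 were Chst8 (0.923), Gabra3 (0.903) and Necab2 (0.900). Libraries share dissection, depth and composition, so these coefficients are a description of 16 points and carry no test.

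Marker genes of neighbouring cell types varied with Htr2c and Htr7. The summed level of 9 CA1 and subiculum pyramidal neuron genes was 85.0 to 120 TPM in p16 WT CTL, 96.8 to 302 TPM in p16 KO CTL, 108 to 188 TPM in p16 WT RUN and 98.8 to 159 TPM in p16 KO RUN, with 1 of the 9 genes under 1 TPM. The highest sum, 302.3 TPM, was that of p16 KO CTL replicate 8, which also held the highest Htr2c and Htr7 levels of all libraries. Over the 16 libraries Htr2c had r = 0.722 and rho = 0.803 with this sum, and r = 0.648 without the 2 libraries farthest from its median. Of these 9 genes 2 were higher and 0 lower in the sedentary knockout against the wild type (median log2 difference 0.69), 1 was higher and 2 lower for running in the knockout (-0.49), and 0 were higher and 2 lower in the interaction (-0.85), beside 0.95, -0.58 and -1.42 for Htr2c. Of all genes, 6.69%, 18.5% and 5.48% passed in these comparisons. With the sum of 11 dentate granule neuron genes the coefficients were -0.589 for Htr2c and -0.710 for Htr7, and -0.492 and -0.580 without the 2 farthest libraries. Of the granule neuron genes 2 were higher and 0 lower for running in the knockout (median 0.28), and 0 passed in the interaction (0.28). Among the other lists, the sum of 10 genes of newborn neurons and dividing cells had r = -0.717 with Htr7 and -0.659 with Htr2c (-0.751 and -0.622 without the 2 farthest libraries). Its sum was 58.9 to 96.8 TPM in p16 WT CTL, 55.2 to 88.7 TPM in p16 KO CTL, 51.8 to 93.2 TPM in p16 WT RUN and 70.6 to 87.1 TPM in p16 KO RUN, with Neurod1 and Sox11 the most abundant and 4 of 10 genes under 1 TPM. Of these 10 genes 6 were higher and 0 lower for running in the knockout, and likewise 6 and 0 in the interaction, where Htr2c and Htr7 were lower. CA3 and CA2 pyramidal neurons had r = 0.738 with Htr2c (0.476 without the 2 farthest libraries), GABAergic interneurons 0.646 with Htr7 (0.668), and the mast cell list, which Kit dominates, 0.682 with Htr2c and 0.750 with Htr7. The sum of 8 oligodendrocyte genes had r = 0.641 and rho = 0.671 with Htr7 (0.455 without the 2 farthest libraries) and 0.461 with Htr2c (0.295). For running in the knockout 0 of these 8 genes were higher and 4 lower, with a median log2 difference of -0.38, and in the interaction 0 were higher and 1 lower, with a median of -0.54, beside -0.38 and -0.61 for Htr7. Their sum was 1033 to 2117 TPM in p16 WT CTL, 1527 to 2536 TPM in p16 KO CTL, 1292 to 1872 TPM in p16 WT RUN and 1212 to 1563 TPM in p16 KO RUN, with none of the 8 under 1 TPM. For Htr7 the CA1 and subiculum coefficient was 0.557, and 0.281 without the 2 farthest libraries. Granule neuron sums ranged from 904 to 1737 TPM in p16 WT CTL, 730 to 1388 TPM in p16 KO CTL, 1145 to 1600 TPM in p16 WT RUN and 1229 to 1800 TPM in p16 KO RUN, with none of the 11 genes under 1 TPM. Without p16 KO CTL replicate 8 the interaction was -1.20 (adjusted p = 0.636) for Htr2c and -0.49 (adjusted p = 0.643) for Htr7, and neither passed. The part of these cell types in the differences was not tested, and in bulk tissue fewer cells of a type cannot be told apart from less RNA per cell.

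**Figure D3:**
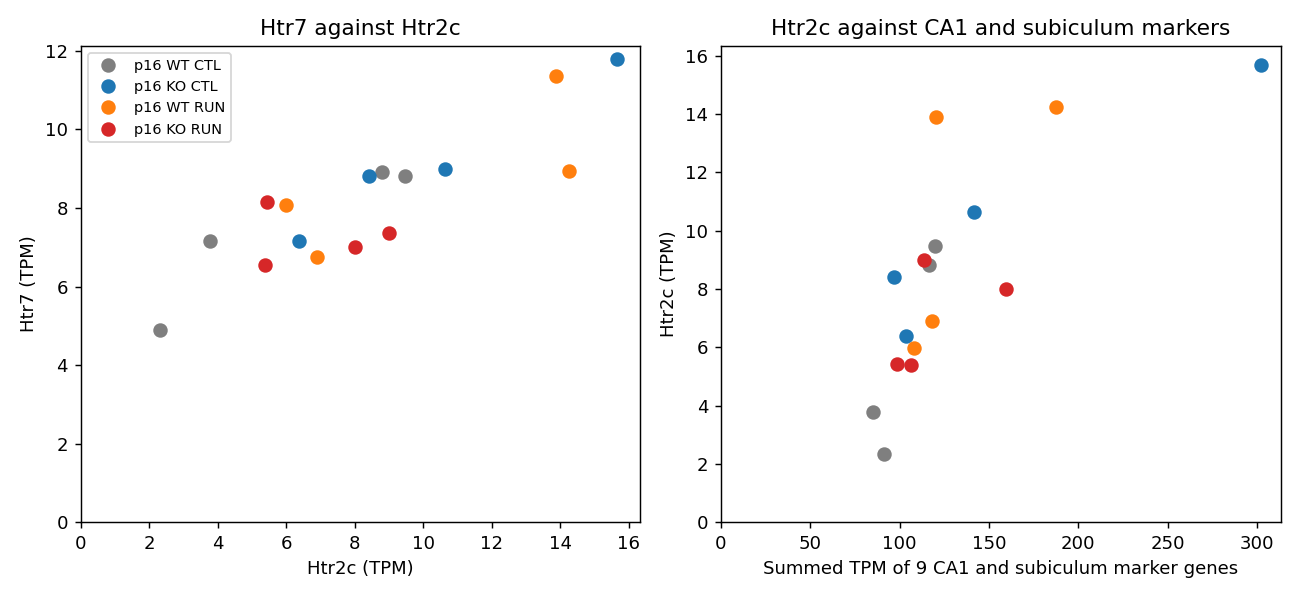
Left, level of Htr7 against Htr2c in TPM, and right, level of Htr2c against the summed TPM of 9 CA1 and subiculum marker genes, with 1 point per library coloured by group (n = 16). Libraries with a high Htr2c level also had a high Htr7 level (r = 0.864 on the log2 scale), and p16 KO CTL replicate 8 lay farthest to the right at 302.3 TPM.

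Choroid plexus genes were read because Htr2c is abundant there. Their summed level (12 genes, Enpp2 and Ttr the most abundant, 2 of 12 under 1 TPM) was 69.7 to 114 TPM in p16 WT CTL, 87.4 to 292 TPM in p16 KO CTL, 62.6 to 104 TPM in p16 WT RUN and 79.5 to 124 TPM in p16 KO RUN. The library with the highest choroid plexus sum, p16 KO CTL replicate 7, had an Htr2c level of 8.42 TPM, near the mean of all libraries. The correlation of Htr2c with this sum was 0.223 (rho = 0.312). Of the 11 choroid plexus genes tested, 0 passed in the sedentary knockout against the wild type (median log2 difference 0.28), 1 was higher and 0 lower for running in the knockout (-0.29), and 0 passed in the interaction (-0.09). Of all genes, 6.69%, 18.5% and 5.48% passed in these comparisons. The part of choroid plexus RNA in the Htr2c differences was not tested.

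The Gq pathway shared by Htr2a and Htr2c was read from 16 genes, all tested. For running in the knockout 1 was higher and 1 lower, beta-arrestin 2 (Arrb2, log2 difference 0.24, adjusted p = 0.214) and the inositol trisphosphate receptor Itpr1 (-0.17, adjusted p = 0.231). Of all genes, 18.5% passed in that comparison. None of the 16 passed for running in the wild type, for loss of p16 in either condition or for running averaged over genotypes. Arrb2, which binds activated receptors and stops their G protein signal, also passed in the interaction (0.32, adjusted p = 0.797). The call of Itpr1 was lost without p16 KO CTL replicate 8 or p16 KO RUN replicate 15 or 16 (p up to 0.0648), and without the libraries low in nuclear RNA Arrb2 was 0.13 (adjusted p = 0.685) for running in the knockout and did not pass. Under that exclusion Arrb2 was -0.17 (adjusted p = 0.783) for running in the wild type and passed. The median log2 difference of the list was -0.06 for running in the knockout.

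Htr4, the other Gs-coupled receptor, is known to raise the excitability of hippocampal neurons. It spans 7 exons on chromosome 18 (62324204 to 62467802, mm10, plus strand). Its level was 14.7, 12.1, 16.3 and 16.1 TPM in p16 WT CTL, 16.3, 12.1, 11.3 and 11.1 TPM in p16 KO CTL, 17.6, 16.8, 21.1 and 15.4 TPM in p16 WT RUN, and 14.5, 17.1, 16.9 and 17.3 TPM in p16 KO RUN. The lowest 4 levels were all in sedentary libraries, and the highest 6 all in running ones. Averaged over both genotypes Htr4 was 1.22-fold higher in running mice (log2 difference 0.28, SE 0.08, unadjusted p = 0.00357, adjusted p = 0.110, exact permutation p = 0.00571). The unadjusted call held in all 16 fits that left out 1 library, with differences from 0.24 to 0.33. Without p16 KO CTL replicate 5 the difference was 0.33 and also passed the adjusted threshold (adjusted p = 0.0382).

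In the knockout alone Htr4 was 1.25-fold higher after running (log2 difference 0.32, SE 0.12, p = 0.0248, adjusted p = 0.233, exact permutation p = 0.0571). That call was lost without p16 KO CTL replicate 7 or 8 or p16 KO RUN replicate 14, 15 or 16, with p up to 0.0664 and differences from 0.25 to 0.42 over the 8 fits. Without the libraries low in nuclear RNA the difference was 0.27 (adjusted p = 0.664) and did not pass. In the wild type the difference was of similar size, 0.25 (SE 0.11, 95% interval -0.0024 to 0.50, p = 0.0518, exact permutation p = 0.0857). It passed without p16 WT CTL replicate 3 (0.28) or p16 WT RUN replicate 12 (0.31). The interaction was 0.07, with a 95% interval of -0.28 to 0.42, which leaves room for a difference between genotypes of up to 0.42. In sedentary mice Htr4 was -0.17 in the knockout against the wild type (p = 0.207, exact permutation p = 0.286), and without p16 KO CTL replicate 5 it passed, at -0.27 (adjusted p = 0.367). The same exclusion made the genotype difference averaged over conditions pass, at -0.18 (adjusted p = 0.341) in place of -0.13. Without the libraries low in nuclear RNA the average over genotypes was 0.22 (adjusted p = 0.493) and still passed. Htr4 had r = 0.701 with the granule neuron sum and -0.685 with the sum of 8 oligodendrocyte genes (0.441 and -0.417 without the 2 farthest libraries). With the newborn neuron and dividing cell sum it was 0.584 (0.730 without the 2 farthest), with the choroid plexus sum -0.623 (-0.466) and with the nuclear RNA sum 0.566 (0.328). The part of these lists in the difference was not tested. Of the 14438 genes ranked, Med13 (r = 0.946), Kdm4a (0.905) and Naf1 (0.897) were most like Htr4.

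The Gs and cyclic AMP pathway after Htr4 and Htr7 was read from 23 genes, all tested. For running in the knockout 2 were higher and 4 lower, where 18.5% of all genes passed. The higher ones were the phosphodiesterase Pde4a (log2 difference 0.37, adjusted p = 0.124) and the adenylyl cyclase Adcy9 (0.52, adjusted p = 0.27). The lower ones were the cyclic AMP-activated exchange factor Rapgef4 (-0.52, adjusted p = 0.13), the phosphodiesterase Pde4b (-0.27, adjusted p = 0.19), the Gs alpha subunit Gnas (-0.26, adjusted p = 0.211) and the protein kinase A regulatory subunit Prkar1a (-0.12, adjusted p = 0.256). Pde4a and Pde4b, which both break down cyclic AMP, thus changed in opposite directions. The call of Adcy9 was lost without p16 KO CTL replicate 6 or p16 KO RUN replicate 13, 14, 15 or 16 (p up to 0.111), and that of Prkar1a held only without p16 KO CTL replicate 5. Without the libraries low in nuclear RNA the knockout differences of Pde4b (-0.25, adjusted p = 0.584) and Prkar1a (-0.10) did not pass. Averaged over genotypes Pde4a was higher by 0.33 (adjusted p = 0.0774), and without the libraries low in nuclear RNA by 0.21 (adjusted p = 0.396), and it passed in both fits. Under that same exclusion the averaged differences of Pde4b (-0.15, adjusted p = 0.548) and Rapgef4 (-0.18, adjusted p = 0.665) no longer passed. None of the 23 genes passed for running in the wild type or for loss of p16 in either condition. Pde4a did pass in the wild type in 3 of 8 fits that left out 1 library and in 1 of 11 other settings.

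The remaining serotonin receptor genes were 9, of which 8 passed the filter. Htr3a, the subunit of the serotonin-gated ion channel (14.6 ± 2.29 TPM, SD, n = 16), and Htr6, a Gs-coupled receptor (9.11 ± 1.48 TPM), were as abundant as the 6 genes above, followed by Htr5a (6.25 ± 0.934 TPM). Htr1b, Htr1f and Htr5b were near 1 TPM, and Htr2b, Htr1d and Htr3b were below it. Htr3a was lower after running in the knockout (log2 difference -0.29, SE 0.07, adjusted p = 0.158), from 16.0 to 16.7 TPM in p16 KO CTL to 13.5 to 14.6 TPM in p16 KO RUN, so that these groups did not overlap in TPM. Of all genes, 18.5% passed in this comparison, and 10% were separated with TPM as deposited. The unadjusted call of Htr3a held in all 8 fits that left out 1 library and, without the libraries low in nuclear RNA, the difference was -0.25 (adjusted p = 0.535) and passed. None of the other receptors passed in any comparison.

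**Figure D4:**
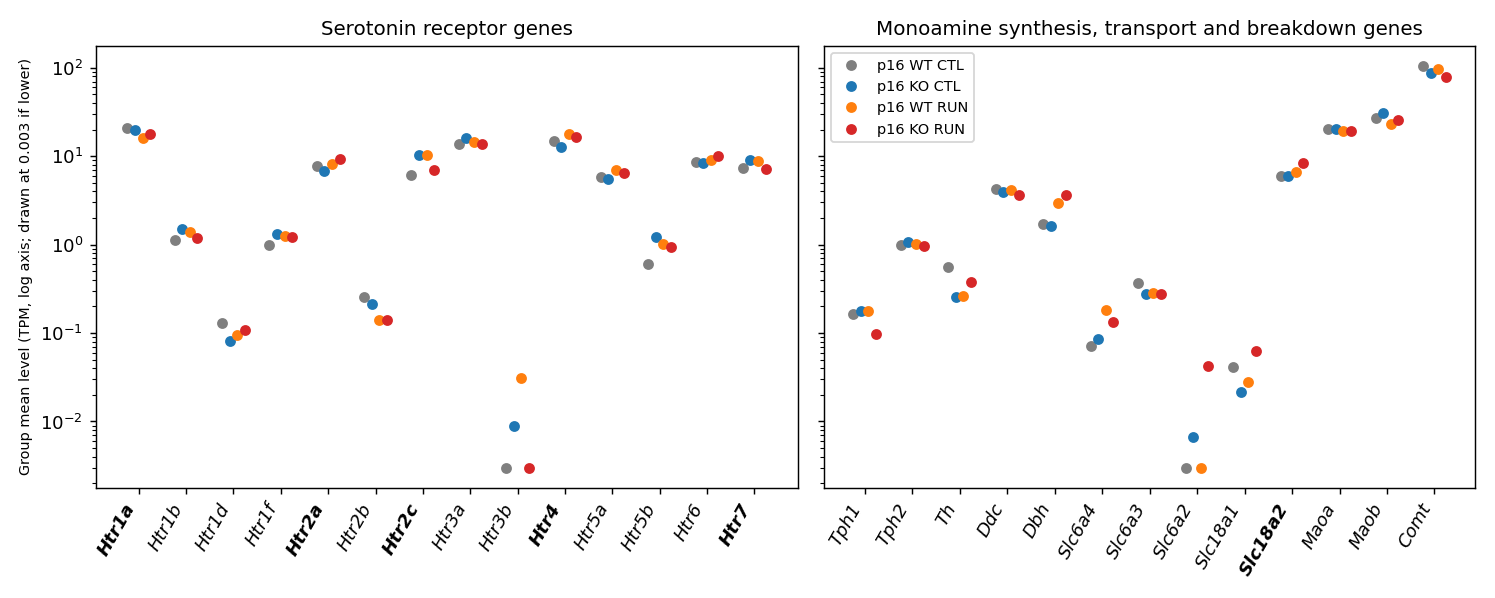
Mean level in TPM (log axis, n = 4 libraries per point, points under 0.003 TPM drawn there) of 14 serotonin receptor genes on the left and 13 genes of monoamine synthesis, transport and breakdown on the right, coloured by group, with the 6 genes described here in bold. Slc18a2 was well above the plasma membrane transporters Slc6a4, Slc6a3 and Slc6a2, and the group means of Dbh were 1.61 and 1.72 TPM in the sedentary groups and 2.94 and 3.63 TPM in the running groups.

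Slc18a2, the vesicular monoamine transporter, has 16 exons and spans chr19:59260878-59296012 (mm10, plus strand), where an annotated antisense gene (Gm29261) overlaps it, so that reads of the pair cannot be told apart if strand was not used in the abundance estimates. The bases from 250 before its start site to 4 after it (RefSeq promoter, GRCm38.p6, plus strand, chr19:59260628-59260881) are shown because Slc18a2 was the gene with the largest number of differences. Capitals mark every match to the 4 motifs.
Slc18a2: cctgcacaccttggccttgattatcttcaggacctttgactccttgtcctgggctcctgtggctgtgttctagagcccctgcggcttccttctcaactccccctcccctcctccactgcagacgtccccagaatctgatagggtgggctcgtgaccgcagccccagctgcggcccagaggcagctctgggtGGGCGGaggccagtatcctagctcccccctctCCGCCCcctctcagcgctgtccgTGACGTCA
The last match is TGACGTCA, the full palindromic cyclic AMP response element, which starts at base -4 and so lies across the start site. Of the 32851 RefSeq windows, 1.79% hold these letters. The other 2 matches are GC boxes (GGGCGG or its complement CCGCCC, at -59 and -27), which 35.7% of windows hold. The TATAAA box, held by 13.6%, was in none of the 5 promoters searched, those of Htr1a, Htr2a, Htr2c, Htr7 and Slc18a2. A match names letters and is neither a site nor a cause.

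The level of Slc18a2 was 6.52, 5.53, 6.32 and 5.62 TPM in p16 WT CTL, 6.02, 5.39, 6.15 and 6.22 TPM in p16 KO CTL, 6.54, 6.29, 6.22 and 7.54 TPM in p16 WT RUN, and 8.56, 9.55, 9.35 and 6.52 TPM in p16 KO RUN. The 3 highest of the 16 libraries were all p16 KO RUN, while p16 KO RUN replicate 16, at 6.52 TPM, lay within the p16 WT RUN range and above all 8 sedentary libraries, the highest of which (p16 WT CTL replicate 1) also rounds to 6.52 TPM. Scaling between libraries changed this order, since replicate 16 was then at 6.40 TPM, below p16 KO CTL replicate 7 at 6.68 TPM and p16 WT CTL replicate 1 at 6.51 TPM. Running in the knockout was accompanied by a 1.35-fold higher level (log2 difference 0.43, SE 0.14, unadjusted p = 0.0146, adjusted p = 0.211). The call held in all 8 fits that left out 1 library, with differences from 0.36 to 0.56, the largest without p16 KO RUN replicate 16 (adjusted p = 0.254). The exact permutation test on the scaled values gave p = 0.0571. With TPM as deposited the 8 libraries were fully separated, the log2 difference was 0.49 (adjusted p = 0.179) and the exact permutation p was 0.0286, the smallest value possible with 4 libraries against 4. Without the libraries low in nuclear RNA the difference was again 0.43, with an unadjusted p at 0.0505 and so just outside the threshold. The study selected Slc18a2 for discussion from these same libraries, so that its change is not independent evidence.

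In the wild type Slc18a2 differed by 0.13 with running (SE 0.12, 95% interval -0.13 to 0.39, p = 0.279, exact permutation p = 0.200), and loss of p16 in sedentary mice by 0.05 (95% interval -0.21 to 0.30). In running mice Slc18a2 was 1.27-fold higher in the knockout (log2 difference 0.35, SE 0.14, p = 0.0372, adjusted p = 1.00, exact permutation p = 0.0571). That call held in 2 of 8 fits and was lost without p16 WT RUN replicate 9, 10 or 11 or p16 KO RUN replicate 13, 14 or 15, with p up to 0.103 and differences from 0.28 to 0.47. Against sedentary wild-type mice the combined difference was 0.48 (SE 0.14, p = 0.00814, adjusted p = 0.374, exact permutation p = 0.0571 and, with TPM as deposited, 0.0286) and held in all 8 fits. The interaction was not past the threshold (0.30, 95% interval -0.08 to 0.68, adjusted p = 0.797), so this limma fit on TPM did not show a running effect particular to the knockout, whereas without p16 KO RUN replicate 16 it was 0.42 (adjusted p = 0.887) and passed the unadjusted threshold. Averaged over genotypes the running difference was 0.28 (SE 0.09, p = 0.00621, adjusted p = 0.136, exact permutation p = 0.0110), and it held in all 16 fits that left out 1 library. Averaged over conditions the genotype difference was 0.20 (p = 0.0413, exact permutation p = 0.0502) and held in 6 of 16 fits. It was lost without p16 WT CTL replicate 2 or 4, p16 KO CTL replicate 7 or 8, p16 WT RUN replicate 9, 10 or 11, or p16 KO RUN replicate 13, 14 or 15, with p up to 0.0922. It was also lost without the libraries low in nuclear RNA (0.19, adjusted p = 0.745) and with TPM as deposited (0.16, adjusted p = 0.647).

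Of the transcripts that define the neurons using Slc18a2, several were near 0, while Dbh, the enzyme of noradrenaline synthesis, was at 1.61 to 3.63 TPM by group and 0.91 higher on the log2 scale with running (adjusted p = 0.0838). Fev, a transcription factor of serotonin neurons, averaged 0.0137 TPM, the serotonin transporter Slc6a4 0.119 TPM, the noradrenaline transporter Slc6a2 0.0122 TPM, the dopamine transporter Slc6a3 0.300 TPM and tyrosine hydroxylase (Th) 0.364 TPM. Tph2, the serotonin-synthesizing enzyme of neurons, averaged 1.01 TPM and Slc18a1, the other vesicular monoamine transporter, 0.0382 TPM. Over the list of 10 monoaminergic neuron genes, of which 5 were under 1 TPM and none at 0 in every library, the summed level was 6.21 to 7.42 TPM in p16 WT CTL, 6.01 to 7.81 TPM in p16 KO CTL, 6.19 to 10.6 TPM in p16 WT RUN and 7.04 to 11.0 TPM in p16 KO RUN. Dbh and Gata2 were its most abundant genes, and its sum had r = 0.514 with Slc18a2 (0.245 without the 2 farthest libraries). Its part in the Slc18a2 difference was not tested. Mast cells also carry Slc18a2, and of a list of 10 mast cell genes Mcpt4, Tpsab1 and Fcer1a were at 0 in all libraries, while Kit and Hdc were the most abundant. The mast cell list, of which 8 of 10 genes were under 1 TPM and which Kit dominated, summed to 22.1 to 48.7 TPM in p16 WT CTL, 35.3 to 62.2 TPM in p16 KO CTL, 33.9 to 49.5 TPM in p16 WT RUN and 18.8 to 37.6 TPM in p16 KO RUN. Its sum had r = -0.185 with Slc18a2 (-0.297 without the 2 farthest libraries). The part of mast cells in the Slc18a2 difference was not tested. Hcrtr1 (r = 0.827), Kremen1 (0.817) and 4930404N11Rik (0.793) were the genes most like Slc18a2 over the 16 libraries, and r with Htr1a was -0.463.

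Of the 11 other vesicular transporter and synaptic vesicle genes, 9 were tested. Sv2c, a synaptic vesicle glycoprotein, was the only one to pass for running in the knockout (log2 difference 0.58, adjusted p = 0.231), where 18.5% of all genes passed. Sv2c missed the threshold without p16 KO CTL replicate 7 or 8 or p16 KO RUN replicate 16 (p up to 0.0669) and without the libraries low in nuclear RNA (0.61, adjusted p = 0.596). Slc18b1, the vesicular polyamine transporter, was higher in the knockout among running mice by 0.16 (adjusted p = 1). Slc17a9, the vesicular nucleotide transporter, was lower in the sedentary knockout by 1.08 on the log2 scale (adjusted p = 0.625), at a level of at most 0.654 TPM. That call was lost without p16 WT CTL replicate 1 or 3 or p16 KO CTL replicate 6 or 7, with p up to 0.0661, and without the libraries low in nuclear RNA (-0.80, adjusted p = 0.673). The glutamate transporter Slc17a7, the most abundant of the list, did not pass in any comparison.

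Of 20 genes of monoamine synthesis, reuptake and breakdown, 17 were tested, and 2 were higher and 3 lower after running in the knockout, where 18.5% of all genes passed. Dbh, which converts dopamine to noradrenaline, was 1.09 higher on the log2 scale (SE 0.33, adjusted p = 0.192), and 0.72 higher after running in the wild type (adjusted p = 0.985), a call lost without p16 WT CTL replicate 1 or 2 or p16 WT RUN replicate 10, 11 or 12 (p up to 0.129). Its level was 1.15 to 2.43 TPM in p16 WT CTL, 0.815 to 2.12 TPM in p16 KO CTL, 1.85 to 4.38 TPM in p16 WT RUN and 2.48 to 4.68 TPM in p16 KO RUN. Averaged over genotypes the difference of Dbh was 0.91 (SE 0.24, adjusted p = 0.0838), with the call held in all 16 fits that left out 1 library, and it was 1.04 (adjusted p = 0.21) without the libraries low in nuclear RNA. The plasma membrane monoamine transporter Slc29a4 was also higher after running in the knockout (0.48, adjusted p = 0.234). The lower genes were Qdpr, which regenerates the cofactor of monoamine synthesis (-0.38, adjusted p = 0.185), and the degrading enzymes Maob (-0.32, adjusted p = 0.241) and Hnmt (-0.34, adjusted p = 0.245). Slc29a4 missed the threshold without p16 KO CTL replicate 7 or 8 or p16 KO RUN replicate 16, Maob without p16 KO CTL replicate 6 or 7 or p16 KO RUN replicate 13 or 14, and Hnmt without p16 KO CTL replicate 6, 7 or 8 or p16 KO RUN replicate 13 or 16, with p up to 0.0718, 0.0844 and 0.0907. Without the libraries low in nuclear RNA the 3 differences were 0.52, -0.09 and -0.23, and none passed. In sedentary mice Gch1, the first enzyme of cofactor synthesis, was lower in the knockout by 0.96 on the log2 scale (adjusted p = 0.625), and without the libraries low in nuclear RNA it was -0.55 (adjusted p = 0.674) and did not pass.

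Of 17 dopamine, adrenergic and histamine receptor genes, 15 were tested. Drd1 and Drd4, a Gs-coupled and a Gi-coupled dopamine receptor, were the only ones to pass for running in the knockout or in the wild type, and both were higher in each. Of all genes, 18.5% passed in the knockout and 4.81% in the wild type. Drd1 was 1.04 higher in the knockout (adjusted p = 0.192) and 1.04 higher in the wild type (adjusted p = 0.985), with 2.24 to 7.24 TPM in p16 WT CTL, 3.35 to 6.49 TPM in p16 KO CTL, 5.88 to 12.7 TPM in p16 WT RUN and 7.20 to 17.5 TPM in p16 KO RUN. Drd4 was 1.84 higher in the knockout (adjusted p = 0.205) and 2.25 higher in the wild type (adjusted p = 0.937), from means of 0.278 and 0.557 TPM in p16 WT CTL and p16 KO CTL to 1.94 and 2.73 TPM in p16 WT RUN and p16 KO RUN. Averaged over genotypes the adjusted p of Drd1 was 0.0762 and that of Drd4 0.0582. The unadjusted calls of both held in all 16 fits that left out 1 library. The adjusted p was under 0.05 in 1 of these 16 fits for Drd1 and in 3 for Drd4. In 10 other settings it was under 0.05 in 0 for Drd1 and in 1 for Drd4. In the wild type alone the call of Drd1 was lost without p16 WT CTL replicate 2 or p16 WT RUN replicate 10 or 12, with p up to 0.0604. In running mice Drd5 was lower in the knockout by 0.26 on the log2 scale (adjusted p = 1.00).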

How the data were processed

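Dentate gyrus RNA was made into 16 libraries by a service provider and sequenced on an Illumina NovaSeq, with adapters masked by cutadapt 1.11, alignment to mm10 by STAR and abundances computed by StringTie. The TPM values, per the file headers, are length-corrected gene abundances computed by the authors. The FPKM values deposited beside them served as an alternative. The coverage values deposited with them gave each gene's depth and, divided by FPKM, the aligned bases per library. No counts were used, so no counting error is attached to single values.

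Rows sharing a gene name were summed, TPM values were scaled by median ratios over 13226 genes, and limma 3.58.1 (R 4.3.3, with a variance trend) was fitted to log2(TPM + 0.1) for the 17317 genes that averaged 0.1 TPM or more. Fold changes are on that scale, which understates changes of low genes. Pairs of groups used their own 8 libraries, and averages and the interaction all 16. P-values were adjusted by Benjamini-Hochberg over all genes tested, and exact permutation tests are two-sided. Confidence intervals are at 95%. Libraries are separate pools of mice, and comparisons that share a group are not independent. Groups came from the sample labels.

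The 6 genes, the pathway and marker lists and the tests were chosen with earlier results of these data known. From each pathway list the genes named by rule were those with an adjusted p under 0.05 and the 3 with the smallest unadjusted p under 0.05 in a pair of groups or the interaction. The combined difference was left out of the pairs used for these 3. The others named were chosen after their values were seen. Likeness was ranked by Pearson's r over the 16 libraries among genes averaging 1 TPM or more. Promoter sequences and positions relative to start sites are RefSeq's (GRCm38.p6), exon numbers are those of GENCODE M21, and gene positions are those of the tables. Alternatives changed the filter, pseudocount, scaling, unit, variance trend, libraries in the fit and library left out. The fits were also run on simulated data in which each gene varied on its own, so they were not tested against shifts shared by the genes of a library.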

Additional observations from a re-analysis of the deposited data

Results flagged for a closer look

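The running effect on Htr2c differed between genotypes at the unadjusted threshold alone, with an interaction of -1.421 on the log2 scale (limma, adjusted p = 0.797), with running differences of -0.58 in the knockout and 0.84 in the wild type that did not pass on their own. For Htr7 the interaction was -0.6149 (adjusted p = 0.797), from -0.38 in the knockout and 0.23 in the wild type. In each gene the running difference was below 0 in the knockout and above 0 in the wild type, and both genes had their highest level in p16 KO CTL replicate 8. In p16 KO RUN, the Htr4 level of replicate 13, 14.47 TPM, stood apart from the other 3 libraries, with a gap of 0.854 of the whole range of its group. Of 24 groups of 4 libraries examined in this way this was the only one, and about 1 in 20 stands apart by chance.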

How the results depend on the processing

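No paired analysis was possible because the groups share no replicate number. Of 504 values of the 6 genes under other settings, 474 kept direction and side of the threshold, 20 lost and 5 gained the unadjusted call, and 5 reversed, and the cause was not tested. The reversals were all of differences that had not passed. They were Htr1a for loss of p16 in sedentary mice with quantile normalization (0.006261), Slc18a2 there with TPM as deposited (-0.01106), and, without the 3 libraries low in nuclear RNA, an alternative chosen after seeing the data, Htr2a there (0.2233) and in the interaction (-0.04299) and Htr7 in the combined difference (0.1161).

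The number of the 6 genes that passed for running in the knockout was 2 in place of 4 with all 16 libraries in one fit and 2 without the libraries low in nuclear RNA, and for loss of p16 in sedentary mice it was 1 in place of 0 under both. Without the libraries low in nuclear RNA the 2 genes for running in the knockout were Htr2c and Htr7. The number for running in the knockout was 3 with no filter, a pseudocount of 1, TPM as deposited or no variance trend. With quantile normalization it was again 4, but with Htr2c in place of Htr2a. For running in the wild type it was 0 in place of 1 with no filter, with TPM as deposited and with no variance trend, and 2 with quantile normalization. For the averaged genotype effect it was 0 in place of 1 with TPM as deposited and without the libraries low in nuclear RNA. For the interaction it was 1 in place of 2 with no filter, a pseudocount of 1, TPM as deposited, FPKM and no variance trend, Htr7 being the gene lost.

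Without 1 library at a time the number was 1 to 4 for running in the knockout, 0 to 1 for loss of p16 in sedentary mice, running in the wild type and loss of p16 in running mice, where the gene was Htr2c without p16 WT RUN replicate 9 and Htr7 without replicate 11 in place of Slc18a2, 1 to 2 for the combined difference, 3 to 4 for the averaged running effect, and 0 to 2 for the averaged genotype effect and the interaction. Differences that changed sign in these fits ranged from -0.09702 to 0.08044 (Htr1a) and -0.2926 to 0.07488 (Htr2a) for loss of p16 in sedentary mice, from -0.07961 to 0.2879 (Htr2a, running in the wild type), from -0.05613 to 0.1276 (Htr2a) and -0.03076 to 0.1355 (Htr7) for the averaged genotype effect, from -0.01989 to 0.6405 (Htr2c) and -0.2022 to 0.1161 (Htr7) for the combined difference, and from -0.06244 to 0.2677 (Htr2c, averaged running effect). None of them had passed. Over all genes, 1470 in place of 3196 passed for running in the knockout and 1608 in place of 3097 for the averaged running effect without the libraries low in nuclear RNA, and 2205 in place of 1158 for loss of p16 in sedentary mice with all libraries in one fit. Depth is known only as coverage, so no counting interval could be given.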
